A study of Saccharomyces cerevisiae with 54 samples.

Results

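Ribosome footprints of budding yeast in meiosis were compared with those of a MATa/a strain sampled at the same 4.5 h in sporulation medium. A gene was included when it had at least 20 RPKM of footprints in either library, which gave 5244 of the 6679 genes in the table (78.5%). RPKM are reads scaled to gene length and to the library total. Of these genes, 4681 reached 20 RPKM in both libraries, 371 in the meiotic library alone and 192 in the MATa/a library alone. A gene of the last 2 kinds had to be low in the other library to enter there, so its difference is partly set by how it was chosen. Just inside that threshold lay TRZ1, with 20.2 RPKM in meiotic cells and 13.7 in MATa/a cells, and just outside it lay SUV3, with 19.97 and 14.9.

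Both libraries come from the SK1 background, a laboratory strain that sporulates rapidly and in near synchrony. One holds cells labelled as meiotic and the other cells of a MATa/a strain labelled as non-meiotic, and the labels name no other allele, medium or agent that sets them apart. The series has 54 samples in all, among them a footprint course of growing cells, 0 to 10 h in sporulation medium and spores, a parallel set with 2 footprint libraries at each of 1.5, 3 and 6 h, and mRNA from a strain with inducible Ndt80. The labels do not say whether the MATa/a culture was 1 clone, or whether it was grown beside the meiotic culture.

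A diploid yeast cell enters meiosis only if it is starved and carries both mating types. The products of the a and alpha loci together repress RME1, a repressor of IME1, and so permit the initiator Ime1 to switch on the early genes for recombination. The transcription factor Ndt80 then switches on the middle genes for the divisions and for spore formation. A MATa/a diploid starves without both mating types, so it is the usual control that separates a response to starvation from the meiotic programme.

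The reads recovered, in units of 1000000, were 13.02 for the meiotic and 10.46 for the MATa/a library. There is 1 library a side, so no difference between them has a replicate check, no p-value is given for it, and intervals from reads cover counting error only. Differences are on the scale log2(RPKM + 1), meiotic minus MATa/a, and a gene is called past 4-fold at 2 or more and past 16-fold at 4 or more on that scale. In these cultures fewer cells of a kind and less RNA in each cell cannot be told apart.

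Differences beyond 4-fold were mostly on the meiotic side. In meiotic cells 485 genes were higher by 4-fold or more, 9.25% of the 5244, and 171 genes (3.26%) were higher by 4-fold or more in MATa/a cells. The counts by gene list given below are to be read against these shares. Past 16-fold the counts were 186 (3.55%) and 7 (0.133%). Of the genes on the meiotic side, 98 passed 64-fold. Within 2-fold lay 3213 genes (61.3%). The median difference over all 5244 genes was 0.19. That split depended on scaling: with each library centred on its median, which shifts the median difference by 0.43, 356 genes were higher in meiotic and 377 in MATa/a cells, and with quantile normalization 380 and 285. For comparison, 11 pairs of footprint libraries, of the same state by their labels, had between 0.173% and 2.82% of genes past 4-fold in either direction. The share here was 12.5%. The SD of the differences was 0.33 to 0.91 in those pairs and 1.65 here. Both upper ends, 2.82% and 0.91, belong to the pair at 0 h. Genes near the threshold included ATG4, just inside with 623 RPKM in meiotic and 155 in MATa/a cells, and DMA2, just outside with 1554 and 388. On the other side PBI2 was just inside with 4570 and 18308, and FAS2 just outside with 846 and 3363.

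**Figure D1:**
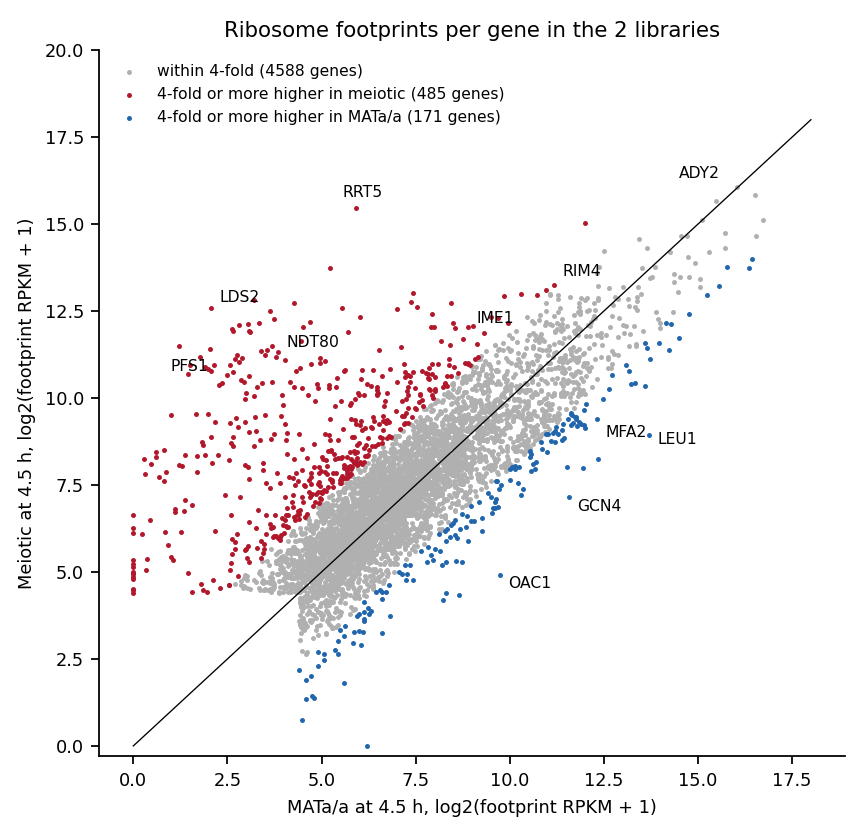
Footprints of the 5244 genes on the scale log2(RPKM + 1), in MATa/a cells (x axis) and in meiotic cells (y axis), 1 library each. Red points are the 485 genes at least 4-fold higher in meiotic cells, blue points the 171 at least 4-fold higher in MATa/a cells, grey points the other 4588, and the line marks equal values. LDS2 and PFS1 lie far above the line at the left, and LEU1, GCN4 and OAC1 below it.

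The 485 genes took 18.4% of summed footprint RPKM in meiotic cells and 1.24% in MATa/a cells. The 171 genes took 4.04% in meiotic cells and 18.9% in MATa/a cells. In the MATa/a library 206 of the 485 were under 20 RPKM, 80 were under 5 RPKM and 14 were listed at 0.

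The mating type genes tell the strains apart in part. MFA2, a gene for the a-factor pheromone, had 669 RPKM in meiotic and 5060 in MATa/a cells, a difference of -2.92. The second a-factor gene, MFA1, had 54.7 and 212. STE2, the receptor that a cells use to sense alpha-factor, had 3.95 and 28.8, with 21 and 122 reads. All 3 were higher in the MATa/a library. The other a-specific genes were less apart or went the other way: the pheromone protease gene BAR1 had 11.6 RPKM in meiotic and 3.77 in MATa/a cells, the a-factor exporter gene STE6 had 4.33 and 10.9, the agglutinin gene AGA2 had 21.7 and 17.2, and ASG7 had 60.4 and 41.0.

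None of the 7 genes on the alpha-specific list reached 20 RPKM in either library. The largest of their values was that of STE3, the alpha-cell receptor, at 17.9 RPKM in meiotic and 3.45 in MATa/a cells. The genes for alpha-factor, MF(ALPHA)1 and MF(ALPHA)2, had 1.88 and 0.767 in meiotic cells and 1.96 and 0 in MATa/a cells. MATALPHA1 had 0.799 and 6.69, and MATALPHA2, whose product a/alpha cells also make, was listed at 0 in both. These genes share sequence with silent copies, and the sources do not say how shared reads were counted. Neither value therefore shows whether the alpha locus was active in a library. SAG1, the alpha-agglutinin gene, had 0.491 and 4.78, and AFB1 had 12.5 and 11.9.

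Of the genes that a/alpha cells repress irrespective of the a or alpha type, 11 of 12 were measured at 20 RPKM or more. RME1, the repressor of IME1, had 247 RPKM in meiotic and 1126 in MATa/a cells, a difference of -2.19 and the only one of the 11 that was 4-fold higher in MATa/a cells. GPA1, the inhibitory subunit of the pheromone G protein, had 66.2 and 174. The scaffold gene STE5 had 25.7 and 68.6, and the kinase gene FUS3 had 223 and 583. STE4 and STE18, the other subunits of that G protein, went the other way, with 158 and 673 RPKM in meiotic cells and 74.7 and 228 in MATa/a cells. DIG2, an inhibitor of the pheromone response, had 185 and 25.3, past 4-fold. AXL1 had 37.9 and 19.3, STE12 25.1 and 22.1, FAR1 37.1 and 48.6, and NEJ1 49.4 and 73.2. HO, the mating type switching endonuclease, was at 3.28 and 2.40.

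Genes of the response to pheromone were divided. Of 15 measured, 4 were 4-fold higher in meiotic cells and 1 in MATa/a cells, against 9.25% and 3.26% of all genes. PRM6, a potassium channel gene, had 40.7 RPKM in meiotic and 0.292 in MATa/a cells. PRM3, which acts in fusion of nuclei, had 207 and 17.9, and CIK1, a partner of the kinesin Kar3, had 116 and 17.8. TEC1, a transcription factor of filamentous growth, had 35.9 and 148.

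Early control of meiosis differed between the libraries gene by gene. Of 16 meiotic entry regulators, 7 were 4-fold higher in meiotic cells and none in MATa/a cells, with a median difference of 1.71 against 0.19 for all genes. IME1, the initiator, had 4206 RPKM in meiotic and 469 in MATa/a cells. Its value was 4053 RPKM at 0 h of the meiotic course, so the MATa/a level at 4.5 h was below that of cells at the start of sporulation. IME2, the kinase that Ime1 induces, had 5139 and 64.04 RPKM. NDT80 had 2575 and 13.3 RPKM, with 20200 and 83 reads, and 14.1 RPKM at 0 h. Of these 3, IME1 alone exceeded 100 RPKM in the MATa/a library.

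RIM4, an RNA-binding repressor of translation that Ime1 induces, was closer between the libraries, with 9780 RPKM in meiotic and 2299 in MATa/a cells. It had 1609 RPKM at 0 h. IME4, an mRNA methyltransferase gene that is read in antisense in cells of a single mating type, had 269 and 1.34 RPKM, or 2018 and 8 reads. At 0 h it had 85.4 RPKM. SLZ1, a partner of Ime4 in the methyltransferase complex, had 8257 and 170 RPKM, against 808 at 0 h. MUM2, the remaining partner, had 1048 and 361. Thus the MATa/a library lay below the 0 h library for IME1, IME4 and SLZ1 and above it for RIM4.

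HST1, a deacetylase that represses middle genes together with Sum1, had 447 RPKM in meiotic and 15.7 in MATa/a cells, a difference of 4.75. The regulators that follow were within 4-fold. SUM1 itself had 25.5 and 29.5, and RFM1, which links the pair, had 253 and 132. UME6, the DNA-binding partner of Ime1, had 172 and 73.4. The kinase genes RIM11, MCK1 and RIM15 had 607, 667 and 96.9 RPKM in meiotic and 358, 378 and 63.9 in MATa/a cells. SPO1, a phospholipase-like gene, had 278 and 74.4.

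**Figure D2:**
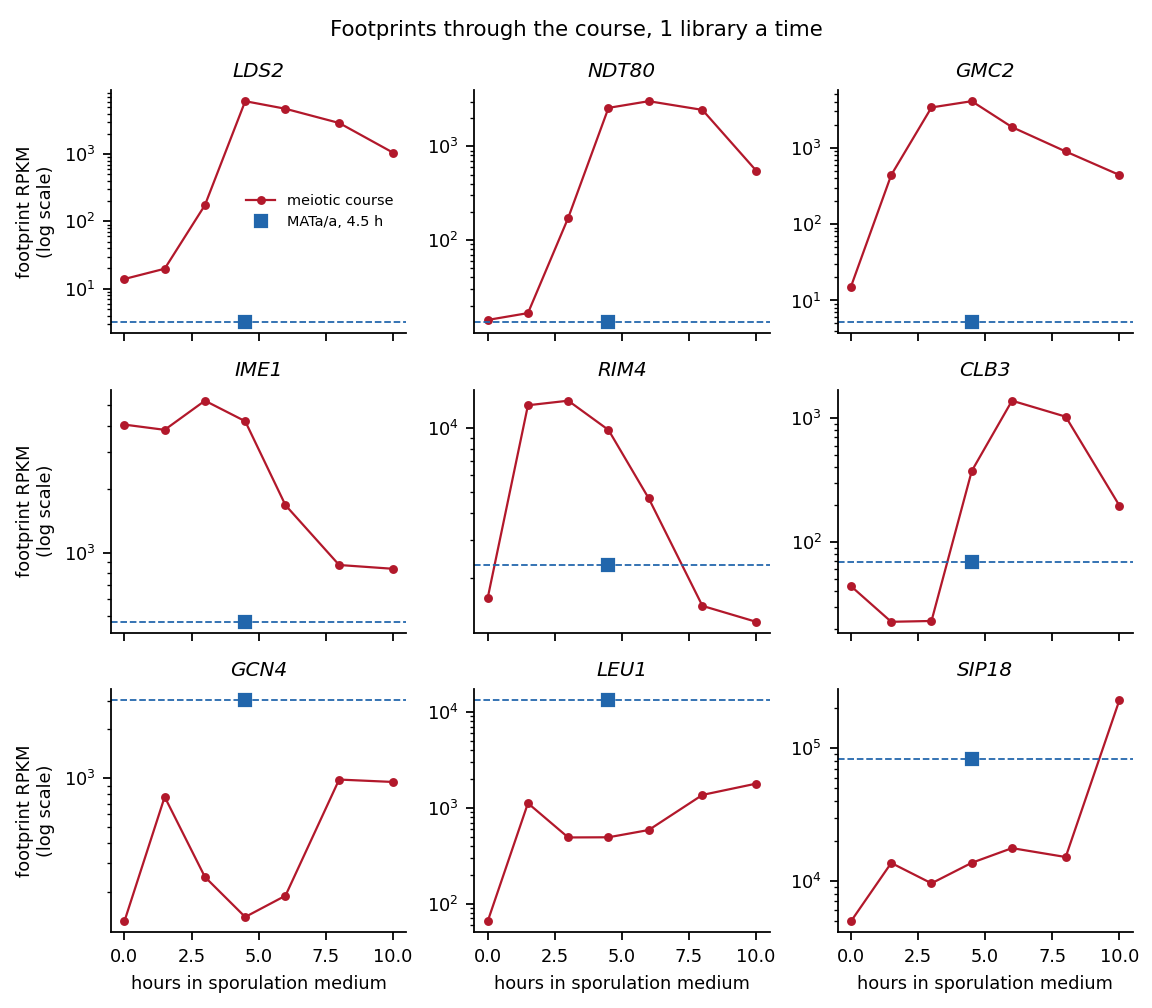
Footprint RPKM of 9 genes (log scale) by hours in sporulation medium. Red points are the meiotic course, 1 library a time, and the blue square and dashed line give the MATa/a library at 4.5 h. LDS2 and GMC2 lie below every meiotic time in MATa/a cells, IME1 likewise at 469 RPKM, RIM4 lies within the course, GCN4 and LEU1 lie above all 7 times, and SIP18 is exceeded at 10 h.

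Recombination genes were mostly higher in meiotic cells. Of 23 genes for double-strand breaks and strand exchange, 14 were 4-fold higher in meiotic cells and none in MATa/a cells, with a median difference of 2.87. SPO11, which cuts the DNA to start recombination, had 570 RPKM in meiotic and 5.90 in MATa/a cells. MEI5 and HOP2, cofactors of strand exchange, had 1324 and 748 RPKM in meiotic and 3.85 and 2.93 in MATa/a cells. DMC1, the meiosis-specific recombinase, had 5428 and 242 RPKM, and was at 159 at 0 h. HED1, a meiosis-specific regulator of recombination, had 3830 and 51.0.

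Some genes of the same pathway that mitotic cells also use were closer between the libraries. RAD50 had 44.7 RPKM in meiotic and 26.3 in MATa/a cells, XRS2 had 44.2 and 41.9, and RAD57 had 38.3 and 36.8. RAD52, a recombination mediator, did pass 4-fold, with 720 and 97.7. SAE2, which mitotic cells use as well, was also past 4-fold on the meiotic side, at 63.2 RPKM in meiotic cells.

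Axis, synaptonemal complex and crossover genes were 4-fold higher in meiotic cells in 19 of 20 cases, with a median difference of 6.20. Their median RPKM was 13.5 at 0 h, 562 in meiotic cells at 4.5 h and 7.86 in MATa/a cells. GMC2, a gene of the complex's central element, had 4065 RPKM in meiotic and 5.18 in MATa/a cells, a difference of 9.36. MEK1, the kinase that favours exchange between homologs, had 2208 and 5.50. ZIP1, the transverse filament, had 1093 and 14.3, and HOP1, an axis protein, had 2255 and 30.1. MER1, a meiotic splicing activator, had 277 and 0.388, the latter from 1 read.

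Among 14 genes of meiotic cohesion and monopolin, 10 were 4-fold higher in meiotic cells. REC8, the meiotic cohesin kleisin, had 725 RPKM in meiotic and 10.3 in MATa/a cells, while MCD1, its mitotic counterpart, had 5.53 and 23.3. SPO13, which keeps sister kinetochores together in the first division, had 1068 and 8.23. MAM1, the meiosis-specific subunit of monopolin, had 526 and 8.60. The monopolin subunits CSM1 and LRS4, which growing cells also use, had 539 and 96.7 in meiotic and 138 and 31.7 in MATa/a cells. Use in growing cells did not by itself go with a small difference. The 10 genes past 4-fold included the monopolin subunit HRR25 and the cohesion genes SMC1, SMC3, IRR1, PDS1 and PDS5, which growing cells use as well.

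Middle genes were far apart as well. Of 23 middle regulators, cyclins and anaphase promoting complex genes measured, 22 were 4-fold higher in meiotic cells, with a median difference of 5.69. SMK1, a kinase of spore wall assembly, had 1958 RPKM in meiotic and 1.85 in MATa/a cells, a difference of 9.43. CDC5, the polo kinase that drives exit from prophase, had 1278 and 18.3. CDC20, an activator of the anaphase promoting complex, had 721 and 14.2, and AMA1, its meiosis-specific activator, had 605 and 59.3. PES4 and MIP6, a pair of related RNA-binding proteins, had 3777 and 2602 in meiotic and 7.56 and 9.58 in MATa/a cells.

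B-type cyclins, which switch on the kinase that drives replication and divisions, were all but 1 past 4-fold. CLB1 had 1341 RPKM in meiotic and 28.4 in MATa/a cells and CLB4 had 1094 and 24.0. The replication cyclins CLB5 and CLB6 had 676 and 278 in meiotic and 36.1 and 3.23 in MATa/a cells. CLB3, a cyclin of the second division, had 374 and 68.7, but only 23.0 at 3 h of the course, below the MATa/a value, and 1382 at 6 h. CLB2, the main mitotic cyclin, had 12.5 and 9.07, below 20 RPKM in both.

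Genes that build the prospore membrane, the sheet that wraps each spore nucleus, had a median difference of 7.00, and 21 of 23 were 4-fold higher in meiotic cells. SMA1 had 1657 RPKM in meiotic and 1.72 in MATa/a cells, and ADY3, of the membrane's leading edge, had 1885 and 2.78. The septin genes SPR3 and SPR28 had 4605 and 4929 in meiotic and 9.08 and 12.3 in MATa/a cells. SPO19, a membrane protein of the prospore membrane, had 13542 and 36.7. VPS13, a lipid transfer gene that growing cells use, had 87.3 and 105.

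Spore wall and late genes were divided. In all, 19 of 29 were 4-fold higher in meiotic cells and 1 in MATa/a cells, with a median difference of 6.90. LDS2, a lipid droplet gene, had the largest difference of any gene with a standard name, 10.51, with 6109 RPKM in meiotic and 3.18 in MATa/a cells. PFS1 followed with 2870 and 1.34 RPKM, or 8072 reads against 3, a ratio whose 95% counting interval ran from 733 to 10396. CDA2, a chitin deacetylase of the chitosan layer, had 7192 and 8.30, with 27188 and 25 reads. LOH1 had 2329 and 2.43, and LDS1 had 4396 and 6.04.

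Other genes of the spore wall list were less apart at this hour. DIT1 and DIT2, which make the dityrosine of the outer layer, had 53.1 and 25.2 RPKM in meiotic and 27.7 and 9.73 in MATa/a cells. SPS100, a late wall gene, had 29.5 and 139 and was the 1 higher in MATa/a cells. The catalase gene CTT1, which is on the chaperone and stress list instead, had 28.7 and 106.

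Other genes outside the lists had like differences. RRT5 had 44921 RPKM in meiotic and 58.8 in MATa/a cells, a difference of 9.55. SPS18, on the list of sporulation genes of other role, had 4447 and 7.27. BIL2 had 5773 and 11.4, SPO23 had 2289 and 6.37, RRT12, a protease gene of spore wall formation, had 2886 and 11.8, and HIM1 had 2399 and 10.3. CNM1 had 318 and 0.505 (1578 and 2 reads), and HMS1 had 223 and 0.234 (1193 reads and 1). RNP1, an RNA-binding protein gene, was the earliest of these, with 4651 and 24.96 at 4.5 h and 4997 at 3 h. Of the 485 genes, 144 were on a list and 75 had no standard name.

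Some genes were 4-fold higher in meiotic cells and yet had high footprint levels in MATa/a cells. CWP1, a cell wall mannoprotein, had 33329 and 4114 RPKM. After it in MATa/a level, among genes with a standard name, came RIM4, then CAR1, the arginase, with 8036 and 1675. HSC82, a cytosolic chaperone of the Hsp90 family, had 8124 and 1256, but it shares most of its sequence with HSP82, so the split of reads between them is uncertain. EDC2, an RNA decapping factor, had 4606 and 986, and EMI2, a hexokinase-like gene, had 7746 and 925. Their 0 h values were 2700 for CWP1, 744 for CAR1, 2644 for EDC2 and 1020 for EMI2.

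**Figure D3:**
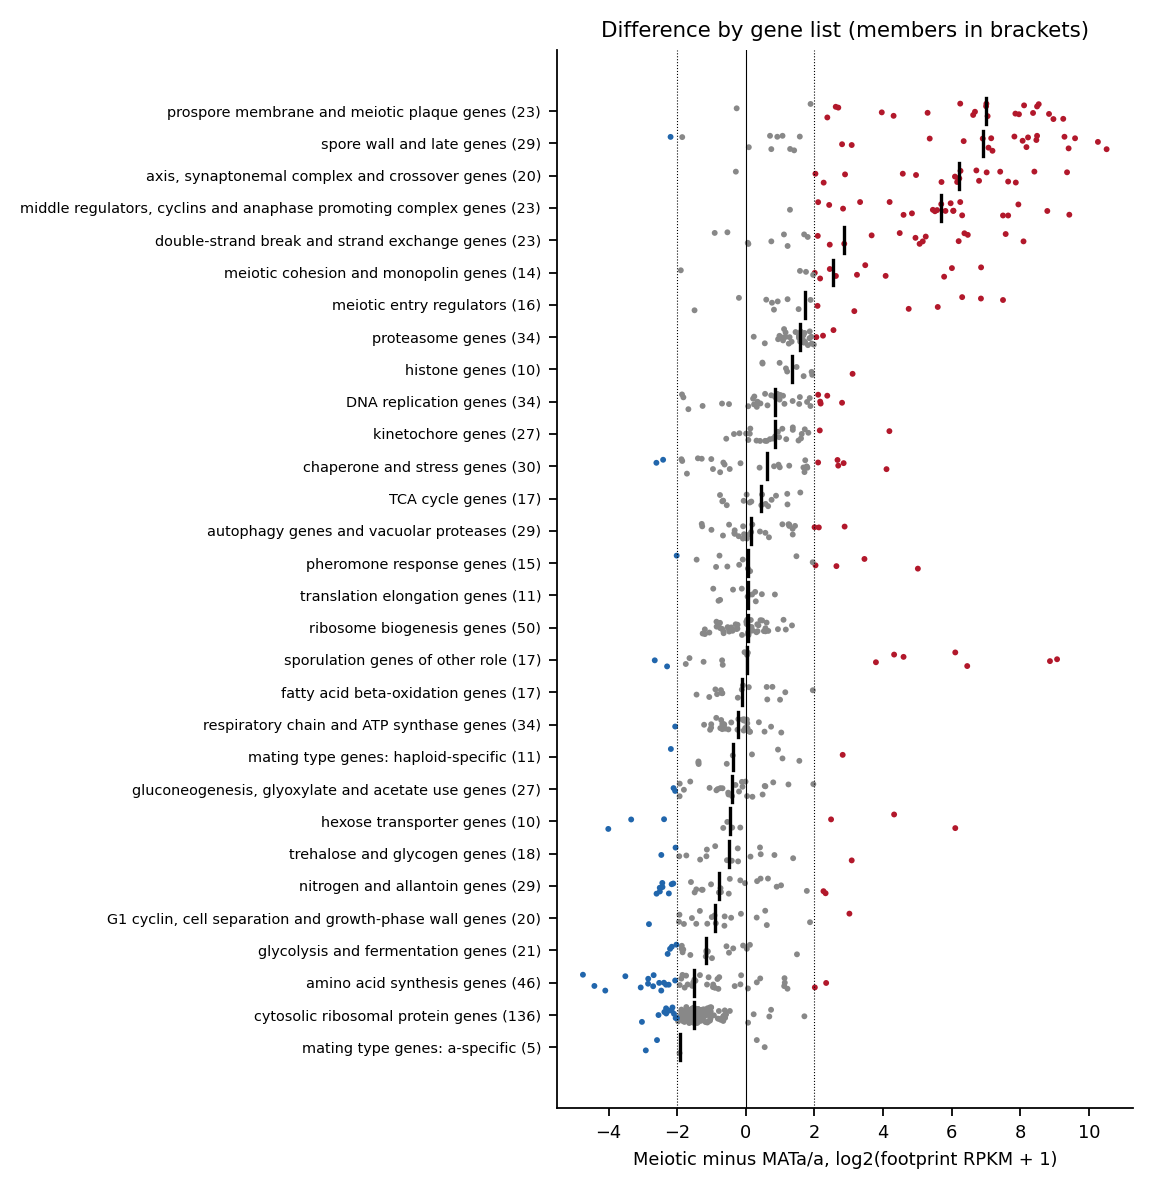
Difference of each measured gene, meiotic minus MATa/a on the scale log2(RPKM + 1), by gene list with the number of measured genes in brackets. Points are genes, red past 4-fold in meiotic and blue past 4-fold in MATa/a cells, black bars are list medians, and dotted lines mark 4-fold. List medians run from 7.00 for prospore membrane genes to -1.93 for a-specific genes.

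Housekeeping groups differed by less. All 34 proteasome genes were higher in meiotic cells, with a median difference of 1.58 against 0.19 for all genes. Of the 34, 3 passed 4-fold, a share near the 9.25% of all genes. RPN2, a scaffold of the regulatory particle, had 1979 RPKM in meiotic and 336 in MATa/a cells. RPN4, the transcription factor of these genes, was the closest, with 669 and 571. All 10 histone genes were higher in meiotic cells, with a median of 1.34, though near-identical copies make their counts uncertain. Of 34 DNA replication genes 28 were higher, with a median of 0.86, and RNR1, which encodes the main large subunit of ribonucleotide reductase, reached 563 and 79.8. The small subunit genes RNR2 and RNR4 were lower in meiotic cells instead, with 1117 and 817 RPKM against 4065 and 2892. Of 27 kinetochore genes 2 passed 4-fold, a share near the 9.25% of all genes. They were OKP1 with 205 and 45.3 RPKM and SPC25 with 1137 and 61.7. NDC80, the gene for the subunit that gives Spc25's complex its name, had 151 and 98.6.

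Some genes for use of acetate, the carbon source of sporulation, were at like levels in the libraries. ADY2, an acetate transporter, had 68926 RPKM in meiotic and 67280 in MATa/a cells, and 99.2 in exponential growth. ACS1, which activates acetate, had 52132 and 45672, against 45.7 in growth, and CIT2, the citrate synthase of the glyoxylate cycle, had 13805 and 14951. The vacuolar protease gene PRB1 had 18637 and 19699, ZEO1 had 25755 and 26964, and PMP3, a small membrane protein gene, had 35506 and 35601. Those 6 had the highest footprint levels among genes with a standard name differing by less than 0.5, so their likeness was set by that choice. Of 27 genes for gluconeogenesis, glyoxylate and acetate use, 8 were higher and 19 were lower in meiotic cells. Past 4-fold, 2 of them were higher in MATa/a cells and none in meiotic cells. The list median was -0.40, against 0.19 for all genes. Tricarboxylic acid cycle genes (17, median 0.45), fatty acid beta-oxidation genes (17, median -0.12) and ribosome biogenesis genes (50, median 0.05) had none past 4-fold in either direction.

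Of the 12 genes with a standard name that differed most towards MATa/a cells, 5 act on branched-chain amino acids, a grouping made after the values were seen. LEU1, the second enzyme of leucine synthesis, had 491 RPKM in meiotic and 13243 in MATa/a cells, a difference of -4.75. OAC1, a mitochondrial carrier for an intermediate of leucine synthesis, had 29.2 and 849, with 115 and 2660 reads. BAT1, the mitochondrial transaminase of branched-chain amino acids, had 300 and 5156. BAP2, a permease for them, had 19.2 and 402, and ILV2, the acetolactate synthase, had 258 and 2952. Of these 5 genes, LEU1, BAT1, OAC1 and ILV2 were higher in MATa/a cells than in any of the 7 meiotic libraries of 0 to 10 h, and BAP2 was not, with 1078 RPKM at 0 h. LEU2 and HIS3 were listed at 0 in both libraries.

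GCN4, the transcription factor that activates amino acid synthesis genes when amino acids are short, had 141 RPKM in meiotic and 3019 in MATa/a cells, a difference of -4.42. In the meiotic course the 0 h value was 132 RPKM, the 1.5 h value 769, the 3 h value 248 and the 8 h value 982. Of 46 amino acid synthesis genes, 15 were 4-fold higher in MATa/a cells and 2 in meiotic cells, with a median difference of -1.52. HIS4, of histidine synthesis, had 148 and 1249, HOM3, aspartate kinase, had 102 and 742, and LEU4, the first enzyme of leucine synthesis, had 561 and 4054. The 2 in the other direction were MET3, ATP sulfurylase, with 308 and 60.1, and SER33, of serine synthesis, with 547 and 135. For 27 of the 46, the MATa/a value was above all 7 meiotic libraries, against 12% of all genes.

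On the list of cytosolic ribosomal protein genes, 131 of 136 were lower in meiotic cells, with a median difference of -1.53, and 12 passed 4-fold. Their median RPKM was 563 in meiotic and 1551 in MATa/a cells, and 9652 in exponential growth. RPL9A had the lowest difference, with 37.9 and 316, and RPL15B the highest, with 577 and 176. Many of these genes are pairs of close copies, so the values of single genes are uncertain. The list was built by symbol and also took in RPP1, with 69.6 and 43.0 RPKM. RPP1 encodes a subunit of RNase P, is not a ribosomal protein gene, and is 1 of the 5 that were higher in meiotic cells.

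Glycolytic genes were lower in meiotic cells in 18 of 21 cases, and 4 passed 4-fold. FBA1, aldolase, had 7932 RPKM in meiotic and 38516 in MATa/a cells, TPI1 had 2753 and 12742, PGK1 had 4457 and 19901, and TDH3 had 13841 and 56320. At 10 h of the course TDH3 was at 52409 and in spores at 84862.

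Nitrogen scavenging genes had 8 of 29 higher by 4-fold in MATa/a cells and 2 in meiotic cells. MEP2, the ammonium permease, had 441 and 2685 RPKM, GAP1, the general amino acid permease, had 996 and 5677, and DAL5, an allantoate permease, had 86.8 and 498. CAR1, named above, and DAL4, the allantoin permease, with 54.6 and 10.1, went the other way.

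Hexose transporters split by member. HXT6 and HXT7, the high-affinity transporters, had 17.4 and 8.58 RPKM in meiotic and 296 and 96.2 in MATa/a cells, and are near-identical copies whose reads cannot be assigned with certainty. HXT5 had 625 and 3269. HXT10 and HXT14 were on the meiotic side, with 141 and 414 RPKM in meiotic and 6.09 and 5.04 in MATa/a cells.

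Among genes on no list, YGP1, a secreted glycoprotein of starved cells, had 251 RPKM in meiotic and 3930 in MATa/a cells. It was at 7749 at 0 h. IRC7 had 19.96 and 313, COS7 had 38.1 and 420, FRE7, a copper-regulated reductase, had 1.55 and 23.0, and SPG1, required for survival of stationary phase, had 1305 and 12296. ALD5, an aldehyde dehydrogenase, had 71.5 and 611. HMRA1, named after its value was seen, had 12.3 and 111. That gene lies in the silent cassette and has the same sequence as the a gene of the active mating type locus, so its reads may come from either.

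Stress genes were divided. HSP26, a small heat shock protein, had 1085 RPKM in meiotic and 62.4 in MATa/a cells, and 25250 at 0 h. HSP82 and YDJ1, an Hsp90 and a co-chaperone, had 5185 and 2041 in meiotic and 718 and 473 in MATa/a cells. SIP18 and DDR2, genes of desiccation and stress, were on the other side, with 13689 and 16498 RPKM in meiotic and 83480 and 87830 in MATa/a cells. Of 30 chaperone and stress genes, 5 were 4-fold higher in meiotic and 2 in MATa/a cells, against 9.25% and 3.26% of all 5244 genes.

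Timing in the course separates the genes of the meiotic side. Of the 485 genes, 14 had their highest footprints at 0 h, 33 at 1.5 h and 77 at 3 h. A further 111 were highest at 4.5 h, 218 at 6 h, 32 at 8 h and none in the 10 h library. Over all 5244 genes 14.6% were highest at 0 h, 21.4% at 1.5 h and 17.8% at 3 h. The 4.5 h library was the highest for 10.5% of them, that of 6 h for 13.4%, that of 8 h for 8.47% and that of 10 h for 13.9%. The MATa/a value was below all 7 course libraries for 165 of the 485, against 9.88% of the 5244 genes. The same course separates the 171 genes of the MATa/a side: 51 were highest at 0 h, 33 at 1.5 h and 5 at 3 h, none did so at 4.5 h, and 66 were highest at 10 h. For 102 of the 171 the MATa/a value was above all 7 libraries, against 12% of the 5244 genes. The comparisons share the MATa/a library and, at 4.5 h, the meiotic one, so these counts are descriptions. Set against the MATa/a library at other hours, 385 of the 485 were also 4-fold higher at 6 h and 237 at 3 h, and of the 171, 108 were also 4-fold lower at 6 h and 104 at 3 h. Over all 5244 genes, 10% were 4-fold higher at 6 h and 5.42% at 3 h, and 4.35% were 4-fold lower at 6 h and 2.67% at 3 h.

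Replicated footprint libraries that took no part in choosing the genes gave a test of their change around this hour. In the parallel set, limma compared 6 h with 3 h, 2 libraries each, over 5633 genes, and called 949 genes (16.8%) up and 2458 (43.6%) down at an adjusted p under 0.05. The median change of all genes was -0.47. Of the 485 genes 295 rose, 121 fell and 69 were not called, with a median change of 1.66. Of the 171 genes, 166 were tested, of which 14 rose and 43 fell, with a median of -0.08. The labels do not say whether the libraries came from separate cultures, so these p-values measure the spread between libraries only.

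Among the 485 genes the direction of change went with the hour of the highest course library. The course libraries are others than these but sample the same hours. Grouping by highest hour therefore largely sets the sign to be found, and the counts by hour describe repeatability between libraries. Shares for all genes grouped by hour in this way were not computed. Of the 110 genes highest at 1.5 or 3 h, none rose and 96 fell. Of the 250 highest at 6 or 8 h, 243 rose and none fell. Of the 111 highest at 4.5 h, 47 rose and 21 fell. On the MATa/a side, 11 of the 80 genes highest at 6, 8 or 10 h rose and 7 fell, with a median of 0.14, and of the 86 highest at 0, 1.5 or 3 h, 3 rose and 36 fell, with a median of -0.57. By list, 20 of 20 axis, synaptonemal complex and crossover genes fell and 20 of 23 double-strand break genes fell, while 21 of 24 middle regulators, 21 of 23 prospore membrane genes and 25 of 29 spore wall genes rose. LDS2 rose by 5.04 ± 0.26 (SE, limma adjusted p = 1.68e-05), and REC8 fell by 1.57 ± 0.13 (SE, limma adjusted p = 0.000195).

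**Figure D4:**
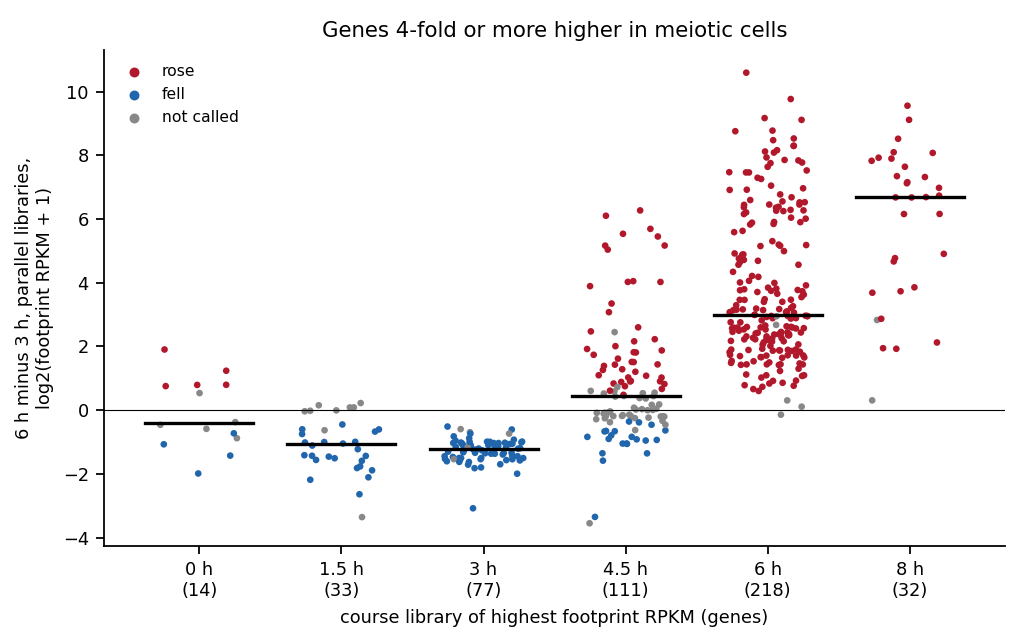
Change of footprints from 3 h to 6 h in the parallel libraries (log2 scale, limma estimate from 2 libraries a time) for the 485 genes, by the course library in which each was highest. Red genes rose and blue genes fell at an adjusted p under 0.05, grey genes were not called, and bars are medians. Points of the 1.5 and 3 h columns lie mostly below 0 and those of the 6 and 8 h columns mostly above.

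Induction of Ndt80 in another strain was a further readout that played no part in the choice. NDT80 mRNA was 45.02, 61.2, 79.8 and 65.0 RPKM in the 4 libraries without induction and between 1430 and 5626 in the 5 with it, and the groups did not overlap. With hour as a term, limma called 4 of 5974 genes up (0.067%) and none down at an adjusted p under 0.05, and 613 had an unadjusted p under 0.05. Among the 485 genes, 484 were tested and the 2 called were NDT80 itself and GAL7, of galactose use, which rose by 7.51 ± 0.87 (adjusted p = 0.00726). NDT80 is the gene that was induced, so its rise was set by the design. GAL7 had 234 RPKM in meiotic and 2.24 in MATa/a cells at 4.5 h. Whether GAL7 rose through Ndt80 or through the inducing treatment was not tested. Of the 484, 175 had an unadjusted limma p under 0.05 with a higher value on induction, against 357 of all 5974 genes. The set of 484 had a median change of 0.61 against -0.33 for all genes. None of the 171 genes was called.

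The induced library of 5.75 h decided that count. Without it, 81 of the 485 genes rose, out of 104 called up over all genes. Read at equal hours with no test, 47 of 471 of the genes with mRNA at 20 RPKM or more were 4-fold higher with Ndt80 at 6 h, against 1.5% of all genes, and 1 was 4-fold lower, against 0.419%. At 7.75 h the count was 190 of 483, against 5.74%. At that hour 37.0% of all genes were 4-fold lower with Ndt80, and 103 of the 483 were. Axis and crossover genes had a median change of -1.25 in the fit, middle regulators 2.11, prospore membrane genes 1.86 and spore wall genes 2.21.

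Footprints of these genes were set against mRNA of meiotic cells at 4.5 h as translation efficiency, the log2 ratio of footprint to mRNA RPKM relative to the median gene. It could not be set up for MATa/a cells: the mRNA library labelled MATa/a correlated at 0.966 with mRNA of exponential growth and 0.494 with meiotic mRNA at 4.5 h over 5891 genes, so it was not used here. The MATa/a footprint library did not show that. Across the 5244 genes its correlation was 0.893 with spores, 0.876 with 1.5 h, 0.839 with 0 h and 0.714 with meiotic 4.5 h. The lowest values were 0.693 with 8 h, 0.662 with 6 h and 0.633 with growth. These libraries share genes and processing, and the values are descriptions. Over the 485 genes the median translation efficiency was 0.17 (483 with mRNA), close to the 0.11 of all 5209 with mRNA. For the 171 genes the median was 0.00. The footprint values in these ratios are those that chose the genes, so the shares and medians are partly fixed by the choice and are given as descriptions.

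Of the genes with a standard name among the 485, 5 are described here for the lowest translation efficiency. SPR6, a sporulation gene, had 7687 RPKM of mRNA and 169 of footprints, a translation efficiency of -4.91, and its footprints were 3816 RPKM at 6 h. SSP2, an activator of Smk1, had 4376 of mRNA and 204 of footprints, and 4877 of footprints at 6 h. SPR2 had 19590 and 1411, with 15165 at 6 h, and HXT10 had 1799 and 141, with 4426 at 6 h. ATF1, an acetyltransferase gene, had 289 and 20.4 and was at 9.34 at 6 h. Of these 5, the first 4 thus had over 10 times more footprints at 6 h than at 4.5 h. In all 30 of 483 genes lay at -2 or less, against 3.40% of all genes.

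Of the genes with a standard name among the 485, those with the most footprints per mRNA were DOC1, MER1, CLU1, GMC2 and CDD1. DOC1, a subunit of the anaphase promoting complex, had 336 RPKM of mRNA and 1592 of footprints. MER1 had 74.99 and 277, CLU1 had 143 and 466, and GMC2 had 1333 and 4065. CDD1, cytidine deaminase, had 447 and 1226. On the MATa/a side, 26 of 158 lay at -2 or less, a share that their choice by low meiotic footprints partly fixes, and GCN4 was among them, with 5681 RPKM of mRNA and 141 of footprints in meiotic cells, a translation efficiency of -4.75. Short open reading frames in its leader are known to hold back its translation. LEU1, by contrast, had 212 of mRNA and 491 of footprints.

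**Figure D5:**
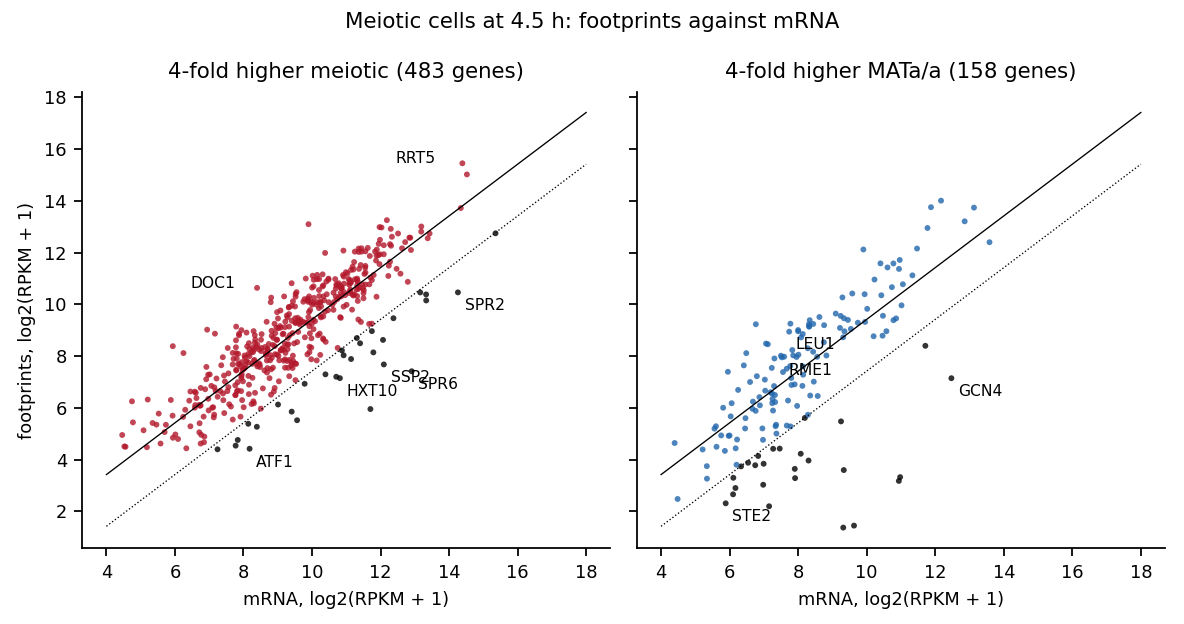
Footprints against mRNA of meiotic cells at 4.5 h, both as log2(RPKM + 1), for genes at least 4-fold higher in meiotic (left, 483 genes) and in MATa/a cells (right, 158 genes). The solid line is the median gene, the dotted line a translation efficiency of -2, and black points lie at or below it. SPR6, SSP2 and HXT10 on the left and GCN4 on the right lie below that line.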

How the data were processed

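Values are RPKM per gene, as the authors deposited them and per the file headers, with 1 column a library. No counting tool, build, annotation or strand setting, nor the basis of the library total, is given in the sources used here. Reads of overlapping and antisense genes therefore cannot be told apart, and no coordinates are printed. CASAVA, bcl2fastq 2.17 and Bowtie2 are named in the submitters' processing notes. The deposited induction table opens with 1 line of hours that names no gene, which was left out. Symbols came from a RefSeq table that holds 5994 of the genes, 5157 of those compared.

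Differences used log2(RPKM + 1). Reads were recovered from RPKM with reference lengths less 60 bases. Over the libraries used, between 78.5% and 90.7% of values up to 100 reads came out whole within 0.02, and 95% intervals are exact binomial ones. Among the parallel columns, 443 genes stand in another order than their names in the 6 of 1.5, 3 and 6 h and were assigned by position. There were 24 columns of single samples not used here, the total RNA among them, and 35 were used. A few listed genes are not reported here. Promoter motifs, planned at first, were not analysed here.

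Genes averaging 5 RPKM or more were fitted with limma 3.58.1 (R 4.3.3), trended eBayes, and Benjamini-Hochberg adjustment over all genes tested: 9 induction libraries with a linear term for hour (leaving 6 residual degrees of freedom), and the 6 parallel footprint libraries of 1.5, 3 and 6 h (3 residual degrees of freedom). The fits were tested on simulated data. Figures and counts used Python 3.11.15.

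Genes, lists and tests were chosen with earlier results of these data known. Named genes are the 12 largest and 12 smallest differences with a standard name, up to 5 of each list by size of difference (all for mating type, entry regulators and B-type cyclins), the 8 largest and smallest on no list, the 6 highest of little difference, the 6 highest in MATa/a among those 4-fold higher in meiotic cells, the 5 lowest and highest translation efficiencies among those, all limited to genes with a standard name, and genes beside the thresholds. Others from the lists were named after their values were seen. There were 31 lists, and 1 listed symbol was not matched. The comparison of same-state pairs was added after the data were seen.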

Additional observations from a re-analysis of the deposited data

How the results depend on the processing

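Counts of genes 4-fold higher in meiotic cells ran from 281, with the 3 h library in place of 4.5 h, to 552 with no filter on low values; the other values lay within 1.5 times of 485, and 226 of the 281 were among the 485. Those 4-fold higher in MATa/a cells were 377 with each library centred, all of the 171 among them, and 285 with quantile normalization, 160 of the 171 among them. Over 30 lists, centring changed the sign of 5 medians (pheromone response, other sporulation, autophagy, ribosome biogenesis and elongation genes). With the 3 h library in place, 7 named genes reversed: ISC10 (-0.66), HXT14 (-0.032), HXT10 (-1.23), SPR6 (-0.58), EMI2 (-0.30), CWP1 (-0.68) and CLB3 (-1.54). The cause of these was not tested. On Ndt80 induction, leaving out 1 library gave 1 to 81 of the 485 rising (1 without the uninduced library of 6 h or that of 7.75 h), 0 to 1 of the 171 falling, and 3 to 104 of all genes rising; quantile normalization gave 8. For 6 h against 3 h, leaving out 1 library gave 286 to 302 of the 485 rising and 92 to 126 falling, 4 to 28 of the 171 rising and 24 to 55 falling, and 719 to 1080 rising and 1582 to 2720 falling over all genes. The replicate numbers did not pair the libraries (correlations of -0.0003, 0.0035 and -0.0997); with a replicate block 294 of the 485 rose and 118 fell, 14 of the 171 rose and 42 fell, and 928 of all genes rose and 2392 fell. Limits: with 1 library a side, culture and strain cannot be told apart, and depth limits genes with few reads in MATa/a cells.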

Other observations

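Among autophagy genes and vacuolar proteases, 3 of 29 were 4-fold higher in meiotic cells, a share near the 9.25% of all 5244 genes, and none in MATa/a cells. The 3 were ATG3, ATG4 and ATG18. ATG3, a conjugating enzyme of autophagosome formation, had 2015 RPKM in meiotic and 273 in MATa/a cells. ATG8, the membrane tag it attaches, had 12284 and 5114. Of 18 trehalose and glycogen genes, 1 was 4-fold higher in meiotic and 2 in MATa/a cells, against 9.25% and 3.26% of all genes. SGA1, the sporulation glucoamylase, had 705 and 82.2. GLG1, glycogenin, had 66.3 and 371, and GPH1, glycogen phosphorylase, had 496 and 2058.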
